A study of Mus musculus with 24 samples.

Results

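Alveolar epithelial cells (AECs) that lacked Krt8 were compared with wild-type AECs on day 3 of 2D culture, using the 6 libraries of that day out of the 24 in the series. The members were chosen by label: 3 Krt8-/- libraries and 3 Krt8+/+ libraries, each pair sharing a batch date and a biological replicate number, referred to here as batch 1, 2, or 3. The mice carried a constitutive deletion, so that every cell of the donor was without Krt8, and AEC2s were isolated and kept in culture without any further treatment. Strain, age, and sex of the mice, and whether a library pooled several animals, are not stated in the labels or in the methods text that was read. The question was whether loss of Krt8 shifts other genes or whole pathways at this stage of culture, even by small amounts that recur in each batch.

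Krt8 encodes keratin 8, the type II keratin that pairs with the type I keratins 18 and 19 to form the intermediate filaments of simple epithelia. AEC2s, the surfactant-producing progenitors of the alveolus, spread and flatten in 2D culture and pass through a keratin-rich transitional state on the way to AEC1-like cells, the thin cells that line most of the alveolus. Keratin filaments carry mechanical load, anchor desmosomes, and bind signalling proteins.

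Reads per gene were counted by the authors, with totals between 12205444 and 14818056 per library, of which 4.43% to 5.51% fell on the 10 genes with the highest counts. Values are given as CPM, counts scaled to a common library size after TMM normalization. Sex-linked genes did not match within batch 1. The summed CPM of the Y-linked genes Ddx3y, Eif2s3y, Kdm5d, and Uty was 0 in its Krt8+/+ library and 175.6 in its Krt8-/- library, where Xist stood at 62.4 and 6.03 CPM. Both libraries of batch 2 were female-like and both of batch 3 male-like. In batch 2, but not in batches 1 and 3, the difference between genotypes also followed transcript length. Its median over genes of at least 10 CPM went from 0.25 on the log2 scale in the shortest of 8 length classes to -0.25 in the longest. List medians are therefore also given with length subtracted, and the mean shifts of the lists also without batch 1. The differences themselves were only loosely shared: across genes of at least 10 CPM they correlated with r = 0.54 between batches 1 and 3, 0.08 between 1 and 2, and 0.09 between 2 and 3, as a description over 9561 genes.

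The cultures also held RNA of other cells. Summed over the marker lists, macrophage genes (24 listed, none without a count) ranged from 526.5 to 2831 CPM in Krt8+/+ and from 431.3 to 1978 CPM in Krt8-/- libraries. Fibroblast and pericyte genes (18 listed, none without a count) ranged from 1220 to 2085 and from 825.6 to 1587 CPM. Mesothelial genes (9 listed, none without a count) ranged from 2314 to 3427 and from 3072 to 3217 CPM. Club and ciliated genes (14 listed, none without a count) ranged from 507.2 to 1310 and from 1066 to 1214 CPM. The median log2 difference of the club and ciliated genes was 0.64, -0.11, and 0.73 in batches 1 to 3. The part of these cells in the values below was not tested. Endothelial genes (17 listed, Emcn without a count) stayed between 57.4 and 75.8 CPM in the 6 libraries. Lymphocyte genes (15 listed) had no count on Cd8a and Gzma and summed to 5.42 CPM at most. Epithelial identity was present in every library: Epcam, an epithelial adhesion molecule, was at 226, 361, and 308 CPM in the Krt8+/+ and 384, 391.8, and 425 CPM in the Krt8-/- libraries of batches 1 to 3.

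Only 3 of 18046 tested genes (0.0166%) differed between genotypes on day 3 at an adjusted p of 0.05 by edgeR's quasi-likelihood test, and all of them were lower in Krt8-/- AECs. They were Krt8 itself, its pseudogene Krt8-ps, and Smarcd1, a subunit of the SWI/SNF chromatin remodelling complex. No gene was higher past the threshold, while DESeq2 called 8 genes, 4 of them higher. At an unadjusted p of 0.05 edgeR gave 452 genes (2.5%), of which 270 (1.5%) were higher and 182 (1.01%) lower. With batch as a block in the fit of all libraries the same 3 genes passed and 584 (3.24%) had an unadjusted p under 0.05. When edgeR was fitted to the 6 libraries of day 3 alone, 849 of 15546 genes (5.46%) had an unadjusted p under 0.05. With batch as a block in that fit the count was 1464 (9.42%), and 5 genes passed. In the fit of all days without batch 1 again 3 passed.

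Krt8 (ENSMUSG00000049382) lies on the minus strand of chromosome 15 at chr15:101996698-102004482 of GRCm38. It was counted at 2599, 3866, and 3344 CPM in Krt8+/+ AECs of batches 1 to 3 and at 29.9, 28.7, and 32.2 CPM in Krt8-/- AECs. The log2 difference was -6.75 (SE 0.27, edgeR adjusted p = 2.0e-12). The groups lay far apart, and the reads that remained in the Krt8-/- libraries were alike in number, at 436, 477, and 457. Krt8-ps, a processed pseudogene on chromosome 7, shares sequence with Krt8, so that reads could be split between them. It was at 95.3, 117, and 152 CPM against 1.23, 0.54, and 1.76 CPM (log2 difference -6.70, SE 0.35, edgeR adjusted p = 1.7e-10).

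Smarcd1 (ENSMUSG00000023018, chr15:99702129-99713991 of GRCm38) was at 18.8, 23.3, and 21.3 CPM in Krt8+/+ and at 2.19, 2.41, and 2.39 CPM in Krt8-/- AECs. Each Krt8-/- library lay below each Krt8+/+ library, with a log2 difference of -3.17 (SE 0.29, edgeR adjusted p = 3.5e-06). The gene was also lower on days 1 and 7, which used other libraries, with log2 differences of -2.46 and -2.83. Its call was the weakest of the 3 when a batch was left out, with an edgeR adjusted p of 0.048 without batch 2, 0.0043 without batch 3, and 1.2e-04 without batch 1.

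**Figure D1:**
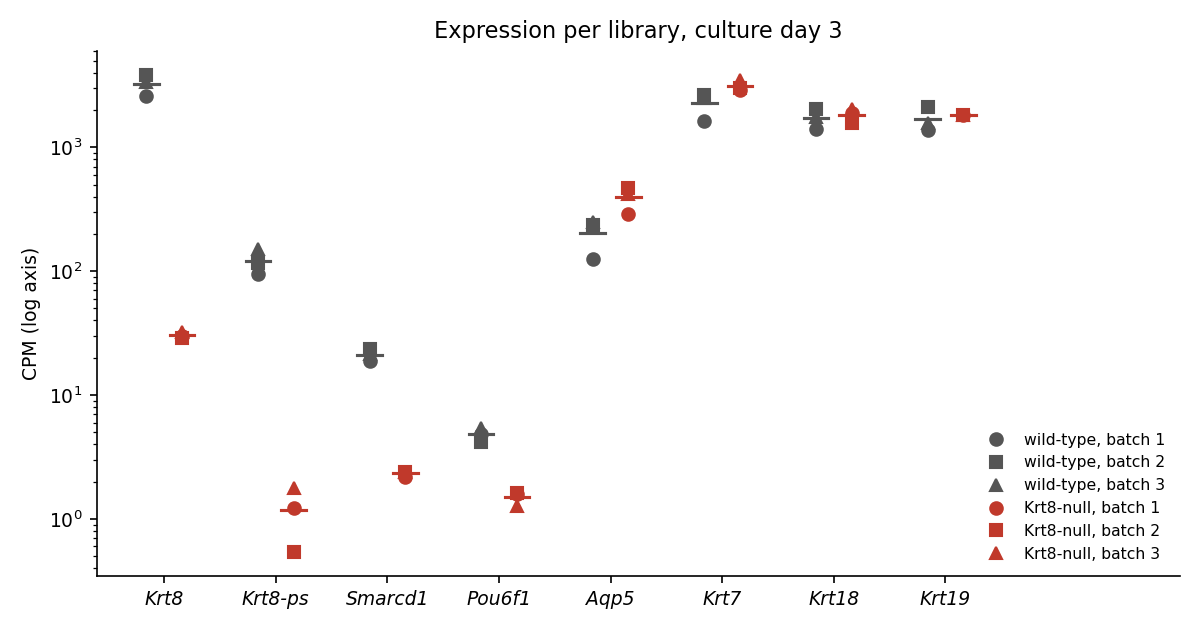
CPM (log axis) of 8 genes in each of the 6 libraries of day 3, with grey for Krt8+/+, red for Krt8-/-, a symbol for each batch, and a bar at the group mean. Krt8, Krt8-ps, and Smarcd1 were lower in Krt8-/- AECs past the threshold. Pou6f1 and Aqp5 had groups that did not overlap but adjusted p values above 0.05. For Krt18 and Krt19 the groups overlapped.

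The partners of keratin 8 were close to their Krt8+/+ levels. Krt18 was at 1408, 2050, and 1754 CPM in Krt8+/+ and at 1911, 1564, and 2041 CPM in Krt8-/- AECs, with a log2 difference of 0.08 (95% interval -0.40 to 0.56). Krt19 was at 1378, 2115, and 1583 CPM against 1825, 1811, and 1815 CPM (0.10, interval -0.33 to 0.54). In both genes the Krt8-/- libraries were higher in batches 1 and 3 and lower in batch 2. Krt7, another type II keratin of simple epithelia, is encoded near Krt8 and belongs to the neighbours described below. It was higher in each batch, at 1647, 2668, and 2485 CPM against 2908, 3040, and 3473 CPM. Its log2 difference was 0.47 (SE 0.23, edgeR unadjusted p = 0.056, adjusted p = 1.0), and all Krt8-/- libraries lay above all Krt8+/+ libraries. Krt5, a basal cell keratin encoded near Krt8, was low throughout, at 0.79, 1.43, and 0 CPM against 1.65, 4.76, and 6.83 CPM (unadjusted p = 0.014, adjusted p = 1.0). Among the 10 type I keratins tested 2 were higher in all 3 batches and none was lower. Among the 9 type II keratins 3 were higher and 1, Krt8, was lower. Over all tested genes 15.2% were higher and 14.0% lower in all 3 batches, and lists this short do not set the keratins apart from that.

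Of the linkers that attach keratin filaments to desmosomes and hemidesmosomes, 15 were tested. In all 3 batches 2 were higher and 2 lower (13.3% each), close to the shares of all genes (15.2% and 14.0%). Pkp3, a desmosomal plaque protein, was at 57.0, 83.1, and 79.5 CPM against 90.7, 87.4, and 118 CPM (log2 difference 0.43, SE 0.22, unadjusted p = 0.058). Dst, which encodes the large cytolinker dystonin, was at 74.0, 93.6, and 72.9 CPM against 62.7, 61.3, and 59.7 CPM (-0.39, SE 0.28, unadjusted p = 0.18). Plec, the main plakin that binds keratin 8/18 filaments, differed by -0.07 (interval -0.43 to 0.29).

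For the 9561 genes of at least 10 CPM the median SE was 0.19, and in 8654 of them (90.5%) the 95% interval of the log2 difference lay between -1 and 1. The smallest log2 difference that passed the threshold was the -3.17 of Smarcd1. Smaller shifts were followed through their recurrence in the 3 batches, which is a description and not a test, since the batches and not the genes are the replicates.

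Smarcd1 is a neighbour of Krt8, and the genes around Krt8 were inspected as a group. Within 10 Mb of Krt8 on chromosome 15 there were 164 tested genes, reaching from the upstream limit to the end of the chromosome. Of these 21 (12.8%) had an unadjusted p under 0.05, 12 higher and 9 lower, against 430 of 17881 genes elsewhere (2.405%). The share was 17.4% from 10 to 5 Mb before Krt8, 13.3% from 5 to 2 Mb, and 11.1% within 2 Mb, and 1.77% to 3.77% in the 3 more distant bins of the chromosome. On days 1 and 7, in libraries that day 3 does not use but from the same batches, 8.54% and 6.71% of the neighbours passed 0.05, against 3.48% and 1.36% of genes elsewhere. Whether the excess belongs to the loss of Krt8 or to chromosomal sequence that came with the deleted allele cannot be told apart in this design.

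Aqp5 encodes the water channel aquaporin 5 of AEC1s. It was at 126, 235, and 251 CPM in Krt8+/+ and at 290, 473, and 420 CPM in Krt8-/- AECs, and lies at chr15:99590782-99594829. All Krt8-/- libraries were above all Krt8+/+ libraries, with a log2 difference of 0.95 (SE 0.26, edgeR unadjusted p = 0.0015, adjusted p = 1.0). In a fit of the 6 libraries alone with batch as a block the adjusted p was 0.043. Pou6f1, a POU-domain transcription factor gene, was at 4.85, 4.21, and 5.39 CPM against 1.58, 1.63, and 1.27 CPM (-1.69, SE 0.37, edgeR adjusted p = 0.68, DESeq2 adjusted p = 0.017). Mettl7a2, one of a cluster of methyltransferase-like genes, had no count in the Krt8+/+ libraries and 40 counts in the Krt8-/- libraries, at 0.48, 1.09, and 1.06 CPM. It was at least 14.2-fold higher when the group without counts was set to 3 counts in all, a floor for counting error only. Prr13, a proline-rich protein gene on the other side of Krt8, was at 121, 147, and 145 CPM against 209, 189, and 204 CPM (0.54, SE 0.15, unadjusted p = 0.0021, adjusted p = 1.0).

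**Figure D2:**
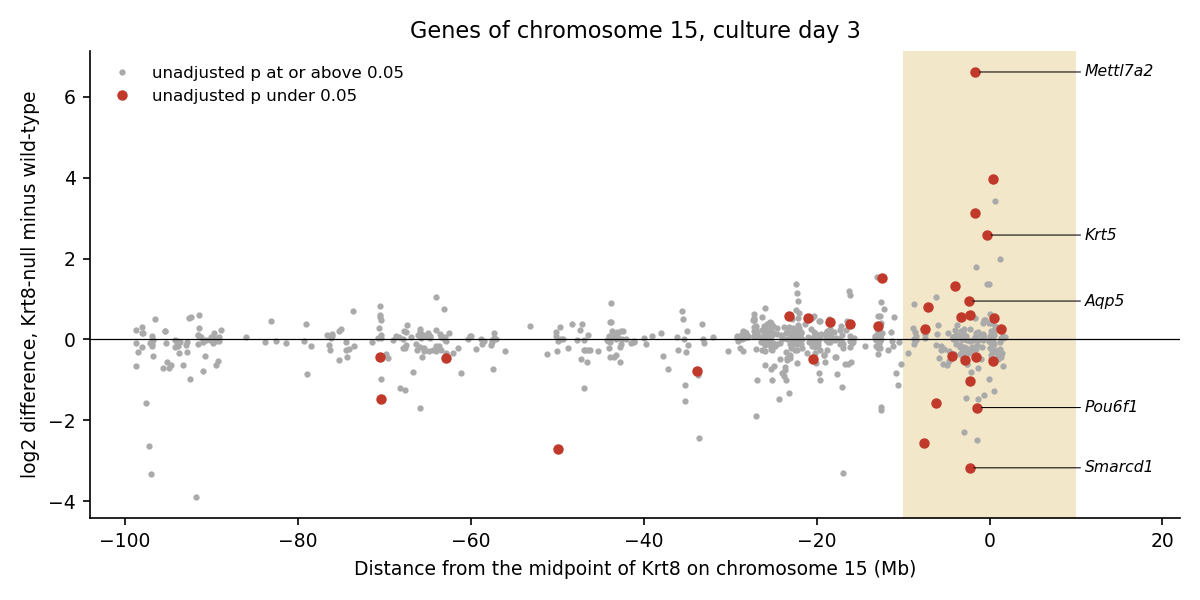
Log2 difference between Krt8-/- and Krt8+/+ AECs on day 3 for each tested gene of chromosome 15 against its distance in Mb from the midpoint of Krt8, with Krt8 itself not drawn. Red points have an unadjusted p under 0.05 and the shaded span marks 10 Mb on each side, where 21 of 164 genes are red. The value drawn for Mettl7a2 is fitted from a group without counts and is not a measured fold.

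Away from Krt8, the genes described next had the smallest p among those that moved the same way in each batch. Their number was set by the rule, which took 10 in each direction with neighbours of Krt8 included. None of those described here was called by edgeR in the fit of all libraries. Among all tested genes 15.2% moved higher and 14.0% lower in all 3 batches. Gm47021, a processed pseudogene on chromosome 13, was at 1.97, 1.55, and 1.76 CPM against 5.07, 4.40, and 6.41 CPM (log2 difference 1.58, SE 0.29, edgeR adjusted p = 0.12, DESeq2 adjusted p = 0.0010). As a pseudogene it may share reads with its parent gene.

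Eno1b was at 62.6, 52.9, and 65.8 CPM against 192, 238, and 78.3 CPM, so that batches 1 and 2 carried the difference (1.49, SE 0.43, unadjusted p = 0.0023). It is nearly identical in sequence to Eno1, the glycolytic enolase gene, and its counts are uncertain for that reason. Without batch 3 the adjusted p was 0.0036. Sgsm3, a regulator of small GTPases, was at 30.2, 33.5, and 31.3 CPM against 48.1, 40.6, and 48.9 CPM (0.53, SE 0.14). Artn, a neurotrophic ligand of the RET receptor, and Cldn8, a tight junction claudin, were 0.96 and 1.72 higher on the log2 scale, from low levels of 6.33 and 0.40 CPM on average in Krt8+/+ AECs. Rasip1, an effector of RAP1 and RAS, was 2.29 higher, from only 10 counts in the Krt8+/+ libraries against 47 in the Krt8-/- libraries. Nipsnap2, a mitochondrial protein gene, was 0.42 higher. Aqp5 and Prr13 were also among the higher genes that the rule named.

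On the lower side, Dync1h1, the heavy chain of cytoplasmic dynein, was at 116, 141, and 116 CPM against 80.9, 89.8, and 95.1 CPM (-0.49, SE 0.15, unadjusted p = 0.0031). Smg1, a kinase of nonsense-mediated decay, was at 24.9, 31.8, and 29.9 CPM against 20.9, 17.7, and 17.2 CPM (-0.63, SE 0.19). Both are very long genes, and the longest of the 8 length classes had medians of -0.011, -0.25, and -0.047 in batches 1 to 3. With the median of genes of like length subtracted, Dync1h1 was at -0.46, -0.40, and -0.19 and Smg1 at -0.19, -0.59, and -0.69. Ptpn12, a tyrosine phosphatase of focal adhesions, was at 28.9, 33.9, and 28.9 CPM against 20.5, 23.6, and 19.1 CPM (-0.54, SE 0.16). Bach1 encodes a repressor that competes with NRF2 at antioxidant response elements. It was at 6.95, 6.80, and 7.38 CPM against 2.67, 5.12, and 4.72 CPM (-0.75, SE 0.22, unadjusted p = 0.0025, adjusted p = 1.0). Nova1, a splicing factor gene, had 57 counts in the Krt8+/+ libraries and none in the Krt8-/- libraries, at least 17.9-fold lower against the same floor. Ccl11, an eosinophil-attracting chemokine, was at 0.98, 0.26, and 2.04 CPM against 0.07, 0, and 0.07 CPM (unadjusted p = 0.0037, adjusted p = 1.0).

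Pathways were followed through 49 gene lists of at least 8 tested genes, by the median log2 CPM difference over the members in each batch. Over all tested genes the same median was 0.003, 0, and 0.006 in batches 1 to 3. In 10 of the 49 lists the median was higher in Krt8-/- AECs in all 3 batches and in 5 it was lower. Of single genes, 15.2% were higher and 14.0% lower in all 3 batches. How many lists would keep 1 sign without a genotype effect was not worked out. In 12 of these 15 lists the share of members that moved the same way in each batch was also at least 2 times that of all genes. This rule was chosen after the values were seen. Of genes of at least 10 CPM, 19.4% were higher in all 3 batches. The shares of sterol synthesis (33.3%) and interferon-stimulated genes (34.1%) are under 2 times that value, and that of MHC class I (38.9%) is barely above. The 7 higher lists were NRF2 and antioxidant, fatty acid oxidation and peroxisome, interferon-stimulated genes, major histocompatibility complex (MHC) class I, sterol synthesis, lysosome, and epithelial genes. The 5 lower lists were cell cycle, the study's DNA damage list, the Wnt pathway, collagens, and other intermediate filaments. After subtraction of the median of genes of like length in each batch, 9 of the 12 kept their sign in all 3. The exceptions were lysosome in batch 1 (-0.02), epithelial genes in batch 2 (-0.06), and collagens in batch 2 (0.10). No member of the 12 lists was called. The mean of the batch medians was 0.061 to 0.27 in the higher lists and 0.086 to 0.22 without batch 1, and it was -0.34 to -0.077 in the lower lists and -0.19 to -0.070 without batch 1. Batch 1 weighed most in epithelial genes (0.27, and 0.12 without it) and collagens (-0.34, and -0.19 without it).

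**Figure D3:**
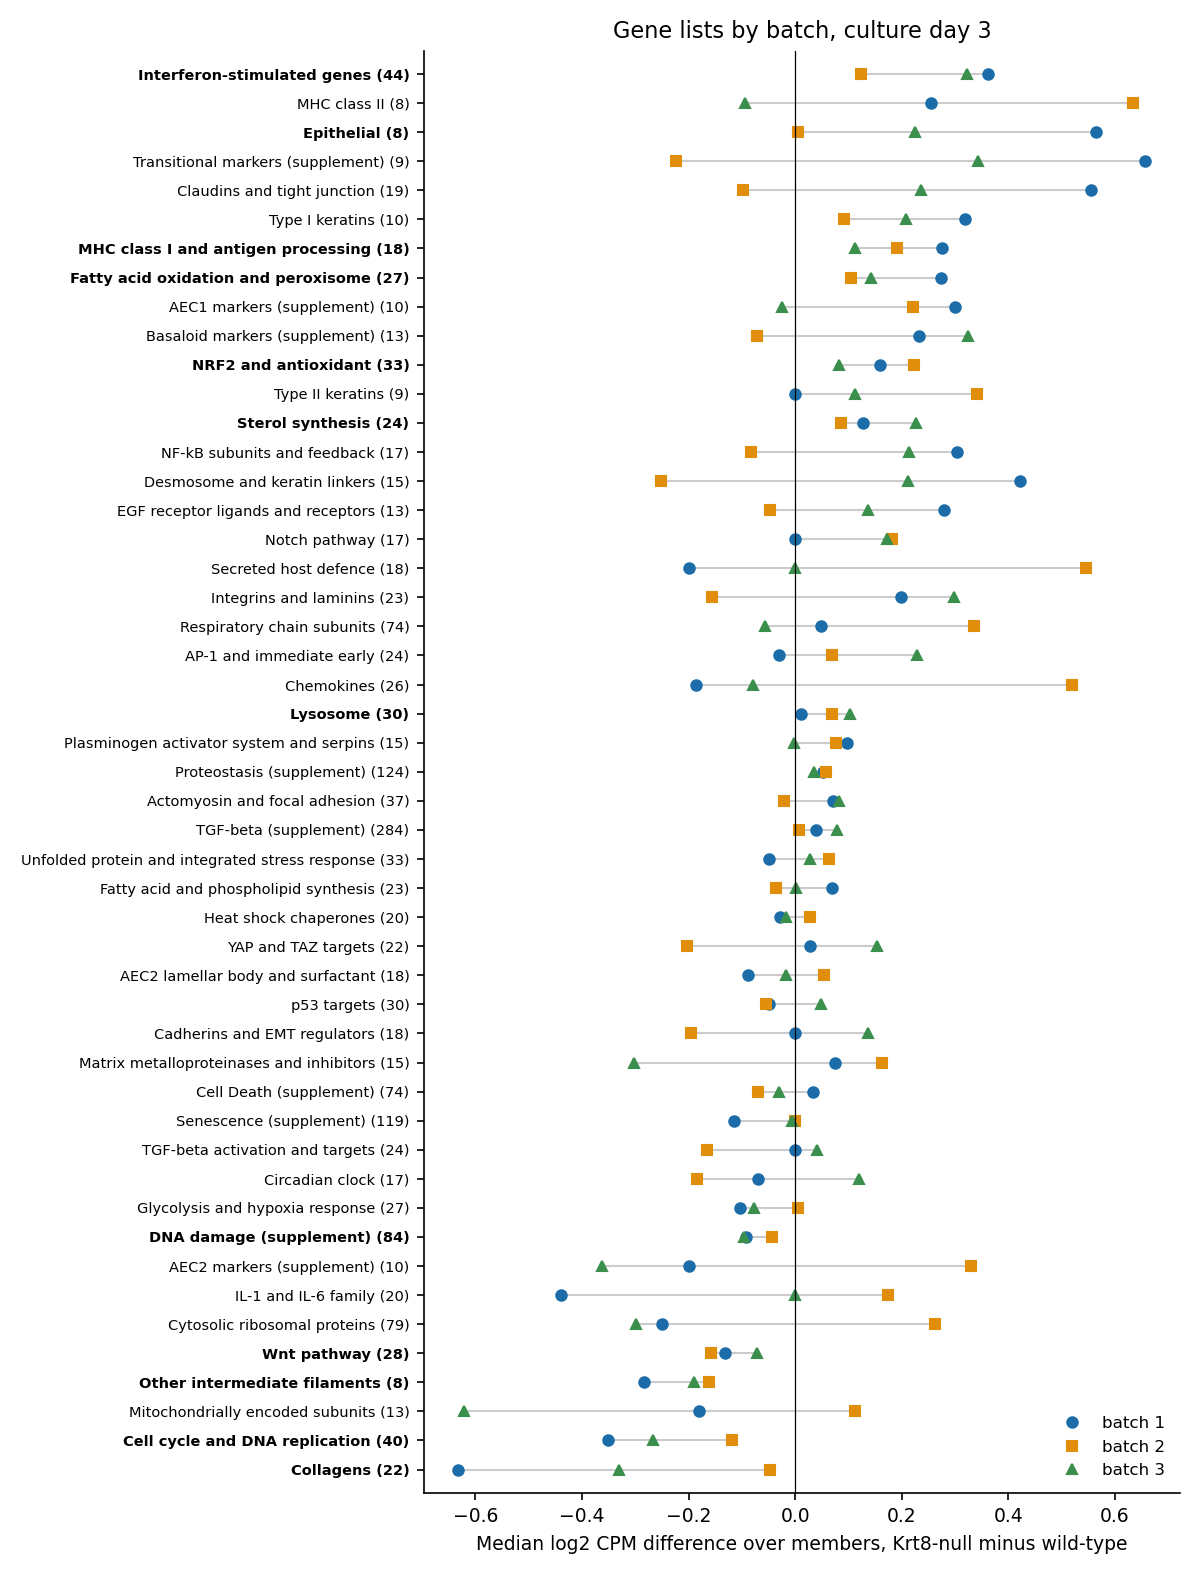
Median log2 CPM difference over the members of each of 49 gene lists in batches 1, 2, and 3 of day 3, with the number of tested members in brackets and the 12 lists described in bold. The grey line spans the 3 batches. The bold lists lie on one side of 0 in each batch, by 0.63 at most, and many other lists cross 0.

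The list with the highest share was NRF2 and antioxidant. NRF2, encoded by Nfe2l2, is the transcription factor that switches on glutathione, thioredoxin, and detoxification genes when its inhibitor KEAP1 is oxidized. It acts at antioxidant response elements (AREs). Of 33 tested members 20 (60.6%) were higher in Krt8-/- AECs in all 3 batches and 1 was lower, against 15.2% and 14.0% of all genes and 19.4% and 13.9% of genes of at least 10 CPM. The median difference was 0.16, 0.22, and 0.08 on the log2 scale in batches 1 to 3, and 0.19, 0.11, and 0.08 with length subtracted. Mean log2 CPM over the members was 7.58, 7.58, and 7.66 in Krt8+/+ and 7.76, 7.81, and 7.78 in Krt8-/- AECs, with no overlap of the groups. Such a gap was seen in 8 of the 49 lists, 6 higher (12.2%) and 2 lower (4.08%). The lower ones were other intermediate filaments and the study's transitional markers. The mean of the transitional markers includes the deleted Krt8 itself, and their medians were 0.66, -0.22, and 0.34. Only 1 member had an unadjusted p under 0.05.

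The glutathione S-transferases, which conjugate glutathione to reactive compounds, led the list. Gsta2 was at 15.6, 20.1, and 18.4 CPM in Krt8+/+ and at 33.0, 23.7, and 31.8 CPM in Krt8-/- AECs (log2 difference 0.71, SE 0.28, unadjusted p = 0.021, edgeR adjusted p = 1.0). Gsta1 was at 77.0, 81.9, and 109 CPM against 142, 110, and 172 CPM (0.67, SE 0.34). Gsta4 was at 104, 83.9, and 87.3 CPM against 119, 132, and 112 CPM (0.40, SE 0.20). Gstp1, a transferase of the pi class, was at 432, 452, and 460 CPM against 554, 674, and 546 CPM (0.40, SE 0.21). In each of these genes all Krt8-/- libraries lay above all Krt8+/+ libraries. Nfe2l2 itself was at 202, 274, and 205 CPM against 225, 295, and 225 CPM (0.13, SE 0.14), higher in each batch with overlapping groups. Members at the other end were Hmox1, which encodes heme oxygenase 1 and is also abundant in macrophages (-0.35), and Srxn1, sulfiredoxin (-0.10), neither past 0.05. Nqo1, a quinone reductase often used as a readout of NRF2, differed by -0.15, 1.03, and 0.15 in batches 1 to 3.

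Promoter windows of 250 bases before the RefSeq start (GRCm38.p6) were searched on both strands for the ARE core TGACNNNGC, to show which list members carry it. It was found in 6 of the 28 members with a window (21.4%) and in 2743 of 27025 windows in all (10.1%). Gsta1, Gsta2, Gsta4, and Gstp1 were not among the 6. Of the 6, Gsta3, Nfe2l2, and Gclm were higher in each batch and G6pdx was lower in each. Sod1 and Prdx1 differed in sign between batches. A match is a description of letters, not evidence of binding. The first set shows the 2 members with a match that had the smallest p among those higher in each batch, Gsta3 (chr1:21240335-21240584, plus strand) and Nfe2l2 (chr2:75704664-75704913, minus strand), 5′ to 3′ with the core in capitals.
Gsta3: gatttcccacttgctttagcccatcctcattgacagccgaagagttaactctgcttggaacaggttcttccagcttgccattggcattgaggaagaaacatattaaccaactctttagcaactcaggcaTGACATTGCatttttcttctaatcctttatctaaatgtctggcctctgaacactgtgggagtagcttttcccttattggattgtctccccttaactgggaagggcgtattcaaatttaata
Nfe2l2: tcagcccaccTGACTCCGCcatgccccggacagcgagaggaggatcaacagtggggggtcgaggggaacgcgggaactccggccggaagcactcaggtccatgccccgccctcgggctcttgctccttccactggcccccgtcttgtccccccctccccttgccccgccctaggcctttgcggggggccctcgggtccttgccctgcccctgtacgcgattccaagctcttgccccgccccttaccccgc
Gsta3, another transferase, was 0.32, 0.53, and 0.08 higher in batches 1 to 3 on the log2 scale. Nfe2l2 differed by 0.16, 0.11, and 0.13.

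Fatty acid oxidation and peroxisome genes, which burn fatty acids in mitochondria and peroxisomes, were higher with medians of 0.27, 0.10, and 0.14, and 0.24, 0.054, and 0.14 with length subtracted. Of 27 tested members 13 (48.1%) were higher in all 3 batches and 1 was lower. Acadvl, the very long-chain acyl-CoA dehydrogenase that starts mitochondrial oxidation, was at 86.7, 94.2, and 103 CPM against 114, 114, and 139 CPM (0.37, SE 0.12, unadjusted p = 0.0067, edgeR adjusted p = 1.0). Cpt2, the inner-membrane carnitine palmitoyltransferase, was at 38.1, 48.4, and 37.8 CPM against 52.9, 52.1, and 53.5 CPM (0.35, SE 0.14). Ech1, an enoyl-CoA isomerase, was at 38.2, 33.2, and 38.0 CPM against 51.1, 45.7, and 41.8 CPM (0.34, SE 0.13). The groups did not overlap in these 3 genes, and 8 members were of that kind, against 6.79% of all genes higher without overlap. Ppargc1a, the coactivator that drives mitochondrial gene programs, was -0.42 with batches that disagreed.

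Interferon-stimulated genes encode antiviral and antigen-handling proteins that interferon signalling switches on through the interferon-stimulated response element (ISRE). Of 44 tested members 15 (34.1%) were higher in all 3 batches and 1 was lower, with medians of 0.36, 0.12, and 0.32. Their mean log2 CPM was 2.69, 2.85, and 2.63 in Krt8+/+ and 3.02, 2.90, and 2.91 in Krt8-/- AECs, without overlap, and with length subtracted the medians were 0.33, 0.06, and 0.28. Igtp, an immunity-related GTPase, was at 3.54, 3.37, and 3.63 CPM against 6.86, 5.36, and 4.58 CPM (0.67, SE 0.28, unadjusted p = 0.028, edgeR adjusted p = 1.0). Ddx58, which encodes the RNA sensor RIG-I, was at 40.1, 54.0, and 51.0 CPM against 54.6, 59.2, and 65.4 CPM (0.30, SE 0.13, unadjusted p = 0.034). Ifit3, an antiviral RNA-binding protein, disagreed between batches at 0.98, -0.26, and 1.15, while Isg15, a ubiquitin-like modifier, was at 0.52, 0.087, and 0.60.

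The ISRE, searched by its core on both strands, was present in 16 of 34 member windows (47.1%) against 821 of 27025 (3.04%), as a description of a list whose genes are known for this element. The window of Igtp (chr11:58199306-58199555, plus strand), the member with the smallest p, is printed with the match in capitals.
Igtp: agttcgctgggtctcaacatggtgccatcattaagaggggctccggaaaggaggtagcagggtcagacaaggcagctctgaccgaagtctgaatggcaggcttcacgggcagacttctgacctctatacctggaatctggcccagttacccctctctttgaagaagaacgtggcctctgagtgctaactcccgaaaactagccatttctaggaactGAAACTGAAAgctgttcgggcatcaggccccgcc
Its match begins 34 bases before the start, and Igtp differed by 0.93, 0.65, and 0.32 in batches 1 to 3. Of the 16 members with a match 5 were higher in each batch and none was lower in each.

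MHC class I genes and the machinery that cuts, transports, and loads their peptides followed the same direction, with medians of 0.28, 0.19, and 0.11, and 0.25, 0.14, and 0.10 with length subtracted. Of 18 tested members 7 (38.9%) were higher in all 3 batches and none was lower. Tapbp, tapasin of the peptide-loading complex, was at 192, 236, and 215 CPM against 277, 262, and 309 CPM (0.40, SE 0.17, unadjusted p = 0.030, edgeR adjusted p = 1.0). Psme2, a proteasome activator subunit, was at 104, 103, and 112 CPM against 137, 135, and 139 CPM (0.36, SE 0.20). H2-K1, a classical class I heavy chain, was at 225, 271, and 275 CPM against 293, 329, and 319 CPM (0.29, SE 0.20). B2m, the invariant light chain, did not share in this and was at -0.05 (interval -0.28 to 0.19). MHC class II genes, typical of AEC2s and of macrophages, had medians of 0.26, 0.63, and -0.09. Class I genes overlap in sequence with each other, so that reads could be split among them. Macrophages express these genes too, and their markers had medians of -0.66, 0.13, and -0.27.

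Sterol synthesis genes, the targets of SREBP2 that make cholesterol, had medians of 0.13, 0.09, and 0.23, and 0.098, 0.10, and 0.20 with length subtracted. Of 24 members 8 (33.3%) were higher in all 3 batches and none was lower. Mvd, mevalonate diphosphate decarboxylase, was at 11.9, 10.4, and 11.2 CPM against 13.8, 15.7, and 15.6 CPM (0.43, SE 0.18, unadjusted p = 0.025, edgeR adjusted p = 1.0). Sqle, squalene epoxidase, was at 82.9, 88.3, and 79.4 CPM against 97.1, 93.3, and 101 CPM (0.22, SE 0.20). Both genes had groups that did not overlap. For lysosome genes, 12 of 30 (40.0%) were higher in all 3 batches and 2 were lower, but the medians of 0.01, 0.07, and 0.10 were small. Ctsh, a cathepsin that processes surfactant protein B and C, was the leading member at 360, 474, and 508 CPM against 579, 638, and 660 CPM (0.48, SE 0.17, unadjusted p = 0.012, edgeR adjusted p = 1.0). Mcoln1, a lysosomal calcium channel, was at 48.8, 50.5, and 51.2 CPM against 61.6, 55.1, and 61.0 CPM (0.24, SE 0.11).

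**Figure D4:**
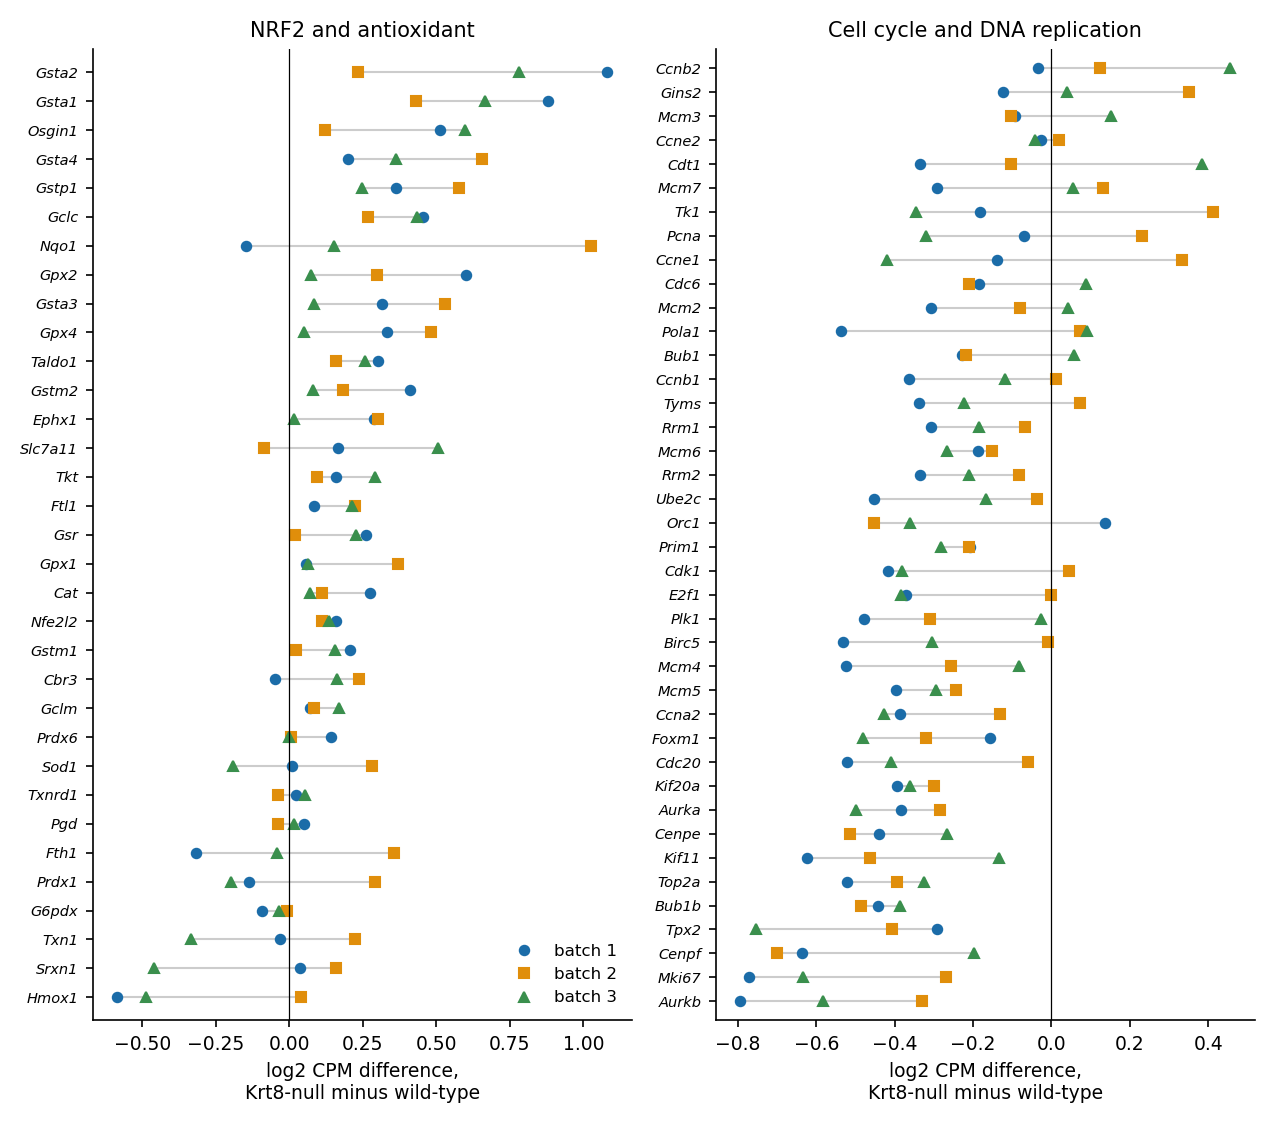
Log2 CPM difference between Krt8-/- and Krt8+/+ AECs in batches 1, 2, and 3 of day 3 for each tested member of the NRF2 list (left, 33 genes) and the cell cycle list (right, 40 genes), sorted by the mean. In the NRF2 list 20 genes have all 3 points right of 0, and in the cell cycle list 23 genes have all 3 points left of 0. No gene drawn passed an adjusted p of 0.05.

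Cell cycle and DNA replication genes made up the lower list with the highest share. They are transcribed as cells pass from S phase to mitosis, so that their sum follows the share of dividing cells. Of 40 tested members 23 (57.5%) were lower in Krt8-/- AECs in all 3 batches and none was higher, with medians of -0.35, -0.12, and -0.27, and -0.39, -0.11, and -0.26 with length subtracted. Mean log2 CPM was 5.84, 5.59, and 5.29 in Krt8+/+ and 5.50, 5.45, and 5.08 in Krt8-/- AECs. Batches differed by more than genotypes, and the groups overlapped. No member had an unadjusted p under 0.05. Dividing cells of any type contribute to these counts. The fibroblast and pericyte markers had medians in the same order of batches (-0.82, -0.07, and -0.70), and the Krt8+/+ library of batch 1 was the highest of the 6 in both lists. The part of fibroblasts in the cell cycle values was not tested.

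Top2a, the topoisomerase that untangles chromosomes in mitosis, was at 125, 108, and 84.1 CPM against 87.1, 82.1, and 67.2 CPM (-0.42, SE 0.31, unadjusted p = 0.19). Mki67, the proliferation marker Ki-67, was at 59.4, 48.9, and 35.9 CPM against 34.8, 40.5, and 23.1 CPM (-0.55, SE 0.41). Cenpf, a kinetochore protein, was at 27.0, 22.8, and 19.6 CPM against 17.3, 14.0, and 17.0 CPM (-0.52, SE 0.37), the only one of the 3 without overlap, which 4.17% of all genes showed on the lower side. Of the 6 subunits of the MCM2-7 replicative helicase, Mcm4, Mcm5, and Mcm6 were lower in all 3 batches and the other 3 were not. Mcm4 was at 154, 145, and 99.0 CPM against 107, 122, and 93.5 CPM (-0.31, SE 0.22). Members that were not lower in each batch included Ccnb2 (0.16), a cyclin, and Pcna, the polymerase clamp, which was above 0 in batch 2 with 0.23.

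Many mitotic promoters carry the cell cycle homology region (CHR), the element TTTGAA bound by the DREAM complex. These letters were found in 8 of 32 member windows (25.0%) and in 4398 of 27025 windows (16.3%). The window of Top2a (chr11:99024190-99024439, minus strand) is shown because it had the smallest p of the members with a match, and its 2 matches, 1 on each strand, are in capitals.
Top2a: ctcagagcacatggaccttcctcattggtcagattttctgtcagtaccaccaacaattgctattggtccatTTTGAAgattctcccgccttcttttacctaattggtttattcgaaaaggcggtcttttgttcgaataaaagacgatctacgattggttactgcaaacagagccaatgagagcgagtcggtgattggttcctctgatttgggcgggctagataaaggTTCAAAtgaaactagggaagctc
Top2a was lower by -0.52, -0.39, and -0.32 in batches 1 to 3.

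The study's DNA damage list, made of repair and checkpoint genes, was lower as well. Of 84 tested genes 29 (34.5%) were lower in all 3 batches and 13 were higher, with small medians of -0.09, -0.04, and -0.10, and -0.12, -0.041, and -0.094 with length subtracted. Mdc1, a mediator of the checkpoint at double-strand breaks, was at 10.9, 10.4, and 11.01 CPM against 8.09, 9.46, and 5.63 CPM (-0.48, SE 0.24, unadjusted p = 0.057). Cdc25a, the phosphatase that drives entry into S phase, was at 33.2, 32.9, and 29.7 CPM against 24.8, 28.4, and 24.01 CPM (-0.31, SE 0.17). Members that went the other way included Ddb2, a p53 target of nucleotide excision repair (0.40, SE 0.23). A separate list of 30 p53 targets had medians of -0.05, -0.06, and 0.05.

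Collagens and vimentin are typical products of mesenchymal cells, so fibroblast markers are given beside them. The 17 tested fibroblast and pericyte markers had medians of -0.82, -0.07, and -0.70, with 7 lower in all 3 batches and none higher. Collagens had medians of -0.63, -0.05, and -0.33, and 7 of 22 (31.8%) were lower in all 3. Other intermediate filaments had medians of -0.28, -0.16, and -0.19, and -0.33, -0.14, and -0.18 with length subtracted. Col5a2, a fibrillar collagen, was at 464, 388, and 290 CPM against 258, 343, and 186 CPM (-0.54, SE 0.52), with overlap. Vim, the mesenchymal intermediate filament vimentin, was at 584, 362, and 366 CPM against 269, 348, and 186 CPM (-0.71, SE 0.56). Fewer fibroblasts and less of these transcripts per cell cannot be told apart in bulk RNA, and the part of fibroblasts in these lists was not tested.

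The intermediate filament list also holds the nuclear lamins, which line the nuclear envelope. Lmnb1 was at 71.6, 100.4, and 71.4 CPM against 55.8, 93.5, and 53.3 CPM (-0.26, SE 0.27), lower in each batch with overlap. Lmnb2 was at 31.8, 31.2, and 24.2 CPM against 27.4, 26.8, and 22.2 CPM (-0.19, SE 0.19), and Lmna was higher at 717, 700, and 688 CPM against 796, 744, and 806 CPM (0.16, SE 0.16). In the Wnt list 8 of 28 (28.6%) were lower and 2 higher in all 3 batches, with medians of -0.13, -0.16, and -0.07, and -0.15, -0.094, and -0.099 with length subtracted. The fibroblast and pericyte markers had medians of -0.82, -0.07, and -0.70 in the same batches, and their part in the Wnt values was not tested. Fzd7, a Wnt receptor, was at 31.1, 25.3, and 25.5 CPM against 20.4, 22.9, and 17.4 CPM (-0.43, SE 0.23). Dkk3, a secreted protein of the Dickkopf family, was at 12.5, 7.97, and 6.24 CPM against 3.08, 6.63, and 2.54 CPM (-1.11, SE 0.66). The ligand Wnt4 was higher, at 4.001, 4.92, and 3.86 CPM against 6.65, 7.29, and 4.58 CPM (0.54, SE 0.34).

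Epithelial genes mirrored the fibroblast markers in batches 1 and 3, with medians of 0.56, 0.01, and 0.22, and 4 of 8 tested genes higher in all 3 batches. These were Krt7, Epcam, Elf3, an epithelial transcription factor, and Cldn7, a claudin. Cldn7 was at 189, 297, and 261 CPM against 310, 326, and 306 CPM (0.34, SE 0.30). The Krt8+/+ library of batch 1 was the lowest of the 6 in Krt7, Epcam, and Cldn7 and the highest in fibroblast and macrophage markers. The transitional markers of the study, 9 genes with Krt8 among them, had medians of 0.66, -0.22, and 0.34. The 10 AEC1 markers had medians of 0.30, 0.22, and -0.02, with 3 higher in all 3 batches. Hopx, an AEC1 homeodomain protein, was at 112, 158, and 181 CPM against 178, 189, and 227 CPM (0.39, SE 0.20, unadjusted p = 0.064). The 10 AEC2 markers had medians of -0.20, 0.33, and -0.36, and Sftpc, the AEC2 surfactant protein, was at 287, 119, and 430 CPM against 236, 205, and 378 CPM.

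Several lists that the study followed had no common direction in the 3 batches or medians close to 0. Of 26 chemokines 4 (15.4%) were higher and 3 (11.5%) lower in all 3 batches, near the 15.2% and 14.0% of all genes. Their medians were -0.19, 0.52, and -0.08. Cxcl17, a mucosal chemokine, was at 14.1, 10.9, and 9.47 CPM against 22.96, 15.9, and 18.4 CPM (0.73, SE 0.34, unadjusted p = 0.041). Ccl7, a monocyte chemoattractant, was at 18.7, 12.6, and 38.7 CPM against 17.8, 5.42, and 10.1 CPM (-1.07, SE 0.60), and its neighbour Ccl2 was higher in batch 1 and lower in the others, at 0.18, -0.53, and -1.76. The study's senescence list (119 tested) had medians of -0.12, 0, and -0.01, and its cell death list (74) had 0.03, -0.07, and -0.03. Its TGF-beta list (284) had 0.04, 0.01, and 0.08, and its proteostasis list (124) 0.05, 0.06, and 0.04, small but higher in all 3 batches. In the TGF-beta list 65 genes (22.9%) were higher and 35 (12.3%) lower in each batch, against 15.2% and 14.0% of all genes. Of genes of at least 10 CPM, 19.4% were higher and 13.9% lower. Mean log2 CPM of the proteostasis list was higher in Krt8-/- AECs without overlap of the groups. In that list 32 genes (25.8%) were higher and 10 (8.1%) lower in all 3 batches. It was led by Edem2, an endoplasmic reticulum degradation factor, at 52.7, 61.9, and 60.8 CPM against 76.0, 73.2, and 71.4 CPM (0.33, SE 0.11, unadjusted p = 0.0073, edgeR adjusted p = 1.0).

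Cytosolic ribosomal proteins had medians of -0.25, 0.26, and -0.30 over 79 genes, and -0.21, 0.10, and -0.27 with length subtracted. Nuclear respiratory chain subunits had 0.05, 0.34, and -0.06 over 74 genes, and 0.078, 0.16, and -0.036 with length subtracted. Neither list had the same sign in all 3 batches. Unfolded protein response genes (33 tested) had -0.05, 0.06, and 0.03, and heat shock chaperones (20) -0.03, 0.03, and -0.02, the narrowest spread around 0 among the stress lists. With length subtracted the unfolded protein response genes had -0.073, 0.055, and 0.0095. Heat shock chaperones then had -0.075, -0.047, and -0.043, slightly lower in all 3 batches.

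Days 1 and 7 were used to see whether the shifts of day 3 recurred in other libraries of the same batches. Each of these days also had 3 called genes (0.0166%), with 638 (3.54%) and 255 (1.41%) at an unadjusted p under 0.05. No gene differed in its genotype effect between day 3 and day 1 or between day 3 and day 7 at an adjusted p of 0.05 by edgeR. At an unadjusted p of 0.05 there were 298 genes (1.65%) and 323 genes (1.79%), and DESeq2, which also called 0 in both, gave 352 and 383. On day 1 the NRF2 list was higher in all 3 batches as well (0.11, 0.03, and 0.13), with 13 members higher in each batch and none lower against 15.3% and 14.1% of all genes, and so was fatty acid oxidation (0.11, 0.13, and 0.21). On day 7 the NRF2 list was lower in all 3 batches (-0.13, -0.17, and -0.12), with none of 33 members higher in each batch and 16 lower against 12.4% and 11.7% of all genes. The cell cycle list was lower in all 3 batches on day 7 (-0.23, -0.25, and -0.03, 14 members lower in each), but on day 1 batch 2 stood apart at 0.62, with -0.11 and -0.15 in the others. Interferon-stimulated genes were at -0.03, 0.26, and 0.17 on day 1 and at -0.03, -0.04, and -0.06 on day 7. Collagens, lower on day 3, were at 0.15, 0.00030, and 0.19 on day 7. Chemokines, which had no common direction on day 3, were at -0.50, -0.52, and -0.56 on day 1, with 11 of 26 (42.3%) lower in all 3 batches and 2 higher. The macrophage markers stood at -0.83, -0.43, and -0.20 on that day, and their part in the chemokine values was not tested.

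**Figure D5:**
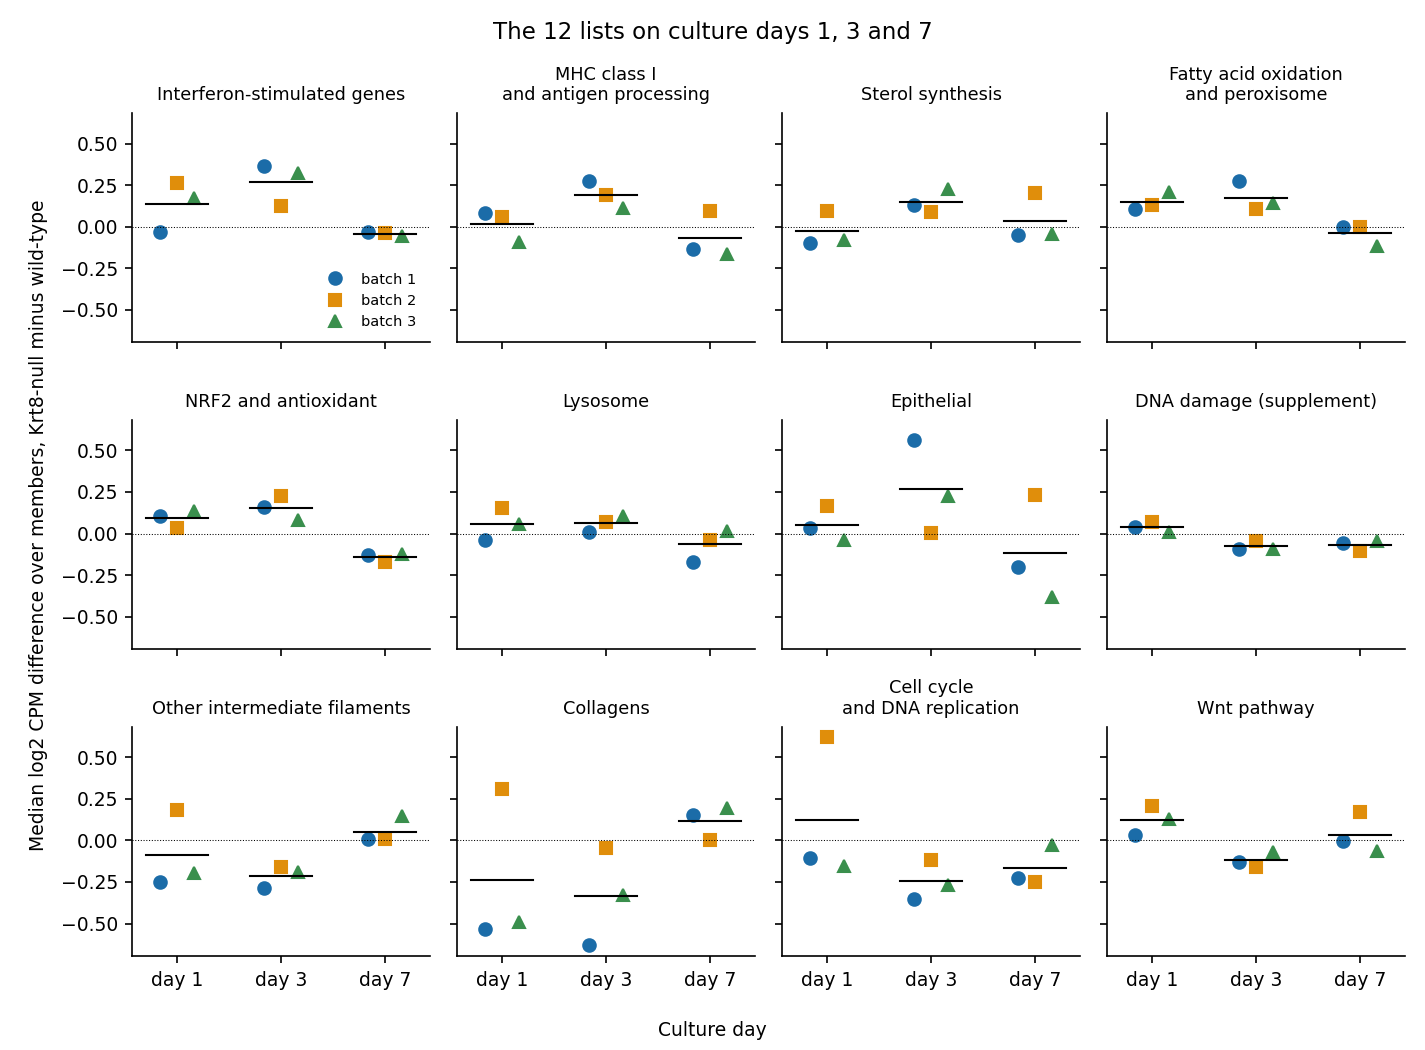
Median log2 CPM difference over the members of the 12 lists on culture days 1, 3, and 7, with a symbol for each batch and a bar at the mean of the 3. The NRF2 points are above 0 on days 1 and 3 and below 0 on day 7, and the cell cycle points are below 0 on days 3 and 7 with batch 2 of day 1 at 0.62.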

How the data were processed

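The authors deposited 1 table of read counts per gene for 24 libraries of mouse AECs, with 55421 Ensembl genes and 5 reporter entries without counts. The submitters' processing notes name cutadapt 2.3, STAR 2.7.8a, RSEM 1.3.3, and GRCm38, with no role or order, so that the whole numbers deposited as counts may be rounded estimates. Strandedness is not given in the sources used here. GENCODE M21 named 55240 genes, and 113 symbols were shared by several genes.

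Genes were filtered with filterByExpr (minimum count 10, minimum total 15), which left 18046, and tested in R 4.3.3 with edgeR 4.0.16 (TMM, quasi-likelihood F test, 8 groups, 16 residual degrees of freedom, Benjamini-Hochberg adjustment, threshold 0.05), after a check of the procedure on simulated data. DESeq2 1.42.0 was the alternative test. CPM used TMM factors, and log2 CPM for the lists a prior count of 2. Labels give each batch a date and a biological replicate number, which pairs the genotypes. On day 3, the departures from the group mean correlated within pairs at 0.26, 0.10, and 0.41. The highest correlation of each Krt8-/- library with a Krt8+/+ library of another batch was 0.023, 0.076, and -0.11. In batch 2 the pair was thus hardly closer than libraries of different batches. No pair of libraries within a group agreed within counting noise (chi-square per gene 12.6 to 27.5). The labels call the batches biological replicates without saying how many mice each holds. Unless another fit is named, p values and SEs rest on a spread estimated within the 8 groups of all days together. That spread is not of day 3 alone and leaves out the pairing by batch. With 3 against 3 libraries, an exact permutation test of a single value cannot go below p = 0.1.

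Promoter windows came from RefSeq (GRCm38.p6), with the first window of each symbol. Named genes were those past 0.05, the 10 with the smallest p in each direction among genes that moved the same way in all 3 batches with at least 1 CPM in a group, up to 4 such members of each list, and all keratins tested. A few further list members are given as values, and some genes that the rule names are not reported here. Comparison, members, and lists were chosen with earlier results of these data known, and 9 lists are those of the study's supplement. Alternatives were other size factors, no filter, the DESeq2 test, batch as a block, the 6 libraries alone, each batch left out, other prior counts, and the mean for the median. Subtraction of length classes (lists, Dync1h1, and Smg1) and the background of genes of at least 10 CPM were added after the values were seen.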

Additional observations from a re-analysis of the deposited data

Results flagged for a closer look

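Some lists and genes moved one way in all 3 batches on day 3 and the opposite way in all 3 batches on another day. The difference between the days was not tested for the lists, and the values are differences of mean log2 shifts between Krt8-/- and Krt8+/+ AECs. The NRF2 and antioxidant list was 0.30 higher on day 3 than on day 7 (0.16 against -0.14), the fatty acid oxidation and peroxisome list 0.21 higher (0.17 against -0.04), and the interferon-stimulated genes 0.31 higher (0.27 against -0.04). Collagens were -0.45 against day 7 (-0.34 against 0.11) and other intermediate filaments -0.26 (-0.21 against 0.05). Some of these rest on medians near 0 on day 7. The medians of batches 1 to 3 were -0.0017, -0.0012, and -0.12 for fatty acid oxidation, 0.15, 0.00030, and 0.19 for collagens, and 0.0070, 0.0067, and 0.14 for other intermediate filaments. Type I keratins differed by 0.34 from day 1 (0.21 against -0.14) and by 0.48 from day 7 (0.21 against -0.27). The study's DNA damage list differed by -0.12 from day 1 (-0.08 against 0.04) and the Wnt pathway by -0.24 (-0.12 against 0.12).

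Among the named genes Dync1h1, the dynein heavy chain, differed by -0.58 from day 1 (-0.49 against 0.09) and by -0.71 from day 7 (-0.49 against 0.23). Smg1, the kinase of nonsense-mediated decay, differed by -0.82 from day 7 (-0.63 against 0.19). Neither gene passed the adjusted threshold in edgeR's test of the difference between days.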

How the results depend on the processing

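Krt8, Krt8-ps, and Smarcd1 stayed past the threshold under each alternative, and the number of genes called moved between 3 and 8. The DESeq2 test called 8, of which 4 were higher (among them Mettl7a2, Gm47021, and Igkc, an immunoglobulin gene) and Pou6f1 was the added lower gene. The 6 libraries of day 3 with the replicate block gave 5, of which 2 were higher (Aqp5 and AW112010). Leaving out a batch gave 3 to 5 genes, with 0 to 2 higher. The 2 were Eno1b and the pseudogene Gm4735 without batch 3. With the replicate block in the fit of all libraries, the adjusted p values by edgeR were 7.4e-12 for Krt8, 2.6e-10 for Krt8-ps, and 5.0e-06 for Smarcd1, 584 genes (3.24%) had an unadjusted p under 0.05, and the pairing changed no call. Both tests of the difference between days gave 0 genes under each alternative run.

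Without a filter, the share of genes higher in all 3 batches was 8.647%, and other intermediate filaments shifted by -0.29 on the log2 scale. Uncalled keratins changed sign. Over the fits that leave out a batch, the log2 difference ran from -0.36 to 0.12 for Krt10, -0.22 to 0.94 for Krt17, -0.049 to 1.28 for Krt20, -0.20 to 0.25 for Krt23, and -1.84 to 0.49 for Krt76, with the sign turned without batch 3. It ran from -0.077 to 0.30 for Krt18, -0.028 to 0.28 for Krt19, -0.090 to 0.011 for Krt79, and -0.14 to 0.17 for Krt80, with the sign turned without batch 1. Krt23 was at 0.022 in the 6 libraries with the replicate block, and Krt79 at 0.00018 with the replicate block in all libraries. The cause of these moves was not tested. Of the other list values, 11 moved by more than the spread between batches and 412 did not. Depth limits genes under 10 CPM most, where a difference is not detectable rather than absent.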
